A study of Mus musculus with 20 samples.

Results

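The promoter flanking regions described here held no read in wild-type SIMS cells, a mouse salivary gland line. They were chosen by their wild-type counts: 0 in each of the 3 wild-type libraries of the promoter flanking table (replicates 2, 3 and 4). The choice took 63251 of the 88425 regions of the table, or 71.5%. Wild-type values of these regions are therefore not compared with anything below. The tests set 12 Zcchc8 knockout (KO) libraries against 4 Btbd7 KO libraries, none of which entered the choice. The wild-type libraries were in no comparison, but they were part of the same fit and its filter on low counts. All edited lines were made with CRISPR/Cas9 from SIMS cells, which were kept in DMEM and 10% FBS, and total RNA was sequenced. The Zcchc8 KO libraries came from 3 clones with 4 libraries each, named clones 1, 2 and 3. Btbd7 KO, which the series used as its negative control, had 4 libraries, and the labels name no clone for it. The labels do not say whether libraries of a line came from separate cultures, so p-values measure the spread between these libraries, which may be technical. With a single Btbd7 KO line, differences from Zcchc8 editing and differences between lines cannot be told apart in the control.

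The zinc-finger protein ZCCHC8 holds together NEXT, the nuclear exosome targeting complex. It joins the RNA-binding protein RBM7 and the helicase MTREX, and passes short, unspliced nuclear transcripts to the RNA exosome for decay. Promoters and open chromatin around them give rise to such transcripts on either strand, and most are degraded soon after synthesis. A promoter flanking region is a class of the Ensembl regulatory annotation: chromatin beside a promoter, as judged from epigenomic marks. The question the series put to these regions is whether loss of ZCCHC8 raises the RNA found there. BTBD7 is a BTB-domain protein known for its part in the branching of salivary epithelium.

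The regions carry Ensembl identifiers with no coordinates in the deposited table, so neither their position nor their sequence is given here. Counting may include reads of any transcript that overlaps a region, since the strand setting of the counting is not given in the sources used here. Counts in genes, which set the scale of every library, ran from 6833258 to 17115112 in the 16 edited libraries. Levels are given in CPM, the counts scaled by the library's gene counts after TMM normalisation. The 7 epithelial markers Krt7, Krt8, Krt18, Krt19, Cdh1, Epcam and Cldn4 were each at or above 131 CPM in every library. Summed, they were 4329 to 4466 CPM in Btbd7 KO and lower in the clones, from 3105 to 3975 CPM. The wild-type sum ran more widely, from 3417 to 5048 CPM, and overlapped both. Krt7 was at 1088 CPM in Btbd7 KO and 733, 801 and 734 in clones 1, 2 and 3. Krt8 and Krt18 were also lower in every clone. Epcam was higher in every clone, at 380, 358 and 379 CPM against 314 in Btbd7 KO. Krt19, Cdh1 and Cldn4 were higher in some clones and lower in others. Of the acinar markers, Smgc was at 0 in all 20 libraries and Bhlha15 reached at most 2.13 CPM, whereas Aqp5 was at least 108 CPM. The 4 basal and myoepithelial markers summed to 400.3 to 421 CPM in Btbd7 KO and 164 to 346 CPM in the clones, nearly all of it Krt14. Their wild-type sum was 253 to 398 CPM. Trp63, of the same list, averaged 20.7 CPM in clone 2 and 0.570 to 4.00 CPM in the other lines, and Krt5 and Acta2 reached at most 1.37 and 0.145 CPM. The 2 immune markers summed to 5.44 to 6.59 CPM in Btbd7 KO, 4.09 to 6.63 in clone 3 and 8.07 to 12.99 in clones 1 and 2, mainly Cd68, while Ptprc reached at most 0.684 CPM. The 4 fibroblast markers summed to at most 28.1 CPM and the 2 endothelial markers to at most 1.02 CPM. The part of these markers in the results was not tested. Zcchc8 RNA was 62.3 CPM in Btbd7 KO and 23.3 in clone 2, with an edgeR log2 fold change of -1.42 (adjusted p = 9.31e-13), but clone 1 (60.3 CPM, adjusted p = 0.694) and clone 3 (54.6 CPM, adjusted p = 0.0625) did not pass. A count over a whole gene does not show a small edit, so these values do not check the labels of clones 1 and 3. Btbd7 RNA was 99.2 CPM in Btbd7 KO and between 197 and 211 CPM in the clones. In bulk RNA a change in the make-up of the cells and a change in RNA per cell cannot be told apart.

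Replicate 4 of clone 1 stood apart from the other libraries. It had at least 1 count in 5429 of the silent regions, against 1623, 2212 and 1896 in the other 3 libraries of clone 1, at nearly equal depth. Of its detected regions, 42.6% had counts in no other edited library, against at most 30.9% in the other 11 Zcchc8 KO libraries. It also had counts in 19805 genes, against 17706, 18346 and 18001 in the rest of clone 1. The part of this library's depth or RNA quality in the results was not tested. At promoter flanking regions, the detection per library and the summed level of clone 1 are given with and without it. So are its ratio to Btbd7 KO and its repeated detection against Btbd7 KO. Detection numbers that pool the lines or set the clones against each other include it, and 2313 regions had counts in this library alone.

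The word silent holds only at this depth. With 0 counts in 3 wild-type libraries, up to 3 counts over the group are allowed, or 0.0629 CPM per region (counting error only). Replicates 2, 3 and 4 had 0 counts at 67918, 69263 and 70613 regions, and 3218, 2275 and 1636 regions were left out of the choice by counts in replicate 2, 3 or 4 alone.

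Most of the silent regions stayed without a read in every line. In 43838 of them (69.3%) all 16 edited libraries were at 0, which with the wild type makes 19 libraries. The other 19413 regions (30.7%) had at least 1 count somewhere. Of these, 11242 (57.9%) had counts in a single library, and 8171 in at least 2. Counts appeared in Zcchc8 KO but not Btbd7 KO at 12737 regions, in Btbd7 KO but not Zcchc8 KO at 2568, and in both at 4108. These 3 numbers compare 12 libraries with 4, so the comparison by line below uses 4 against 4. Signal was spread thinly: the 10 regions with the most counts held 2.14% of the 96003 counts, and 99% of the regions had 24 counts or fewer over the 16 libraries.

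The number of silent regions detected per library was compared first. As deposited, Btbd7 KO libraries had at least 1 count in 3001, 2085, 1452 and 1867 regions (replicates 1 to 4). Clone 2 libraries had 1970, 2264, 4433 and 2239, and clone 3 libraries 3298, 1751, 2622 and 4199. Depth differed within these lines, from 7053304 to 16994115 gene counts in clone 2, and the lines overlap: 8 of the 12 Zcchc8 KO libraries lay at or below the highest Btbd7 KO library. The expected number was therefore computed after thinning each library to the lowest gene total. At equal depth Btbd7 KO had 1441 ± 248 (SD, n = 4), clone 2 had 1985 ± 438 and clone 3 had 2263 ± 474 (SD, n = 4 for both). In clone 1 it was 2659 ± 1611 (SD, n = 4), or 1862 ± 286 (SD, n = 3) without replicate 4. Of the 12 Zcchc8 KO libraries, 8 lay above every Btbd7 KO library and 4 did not, so detection alone overlaps between the lines.

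**Figure D1:**
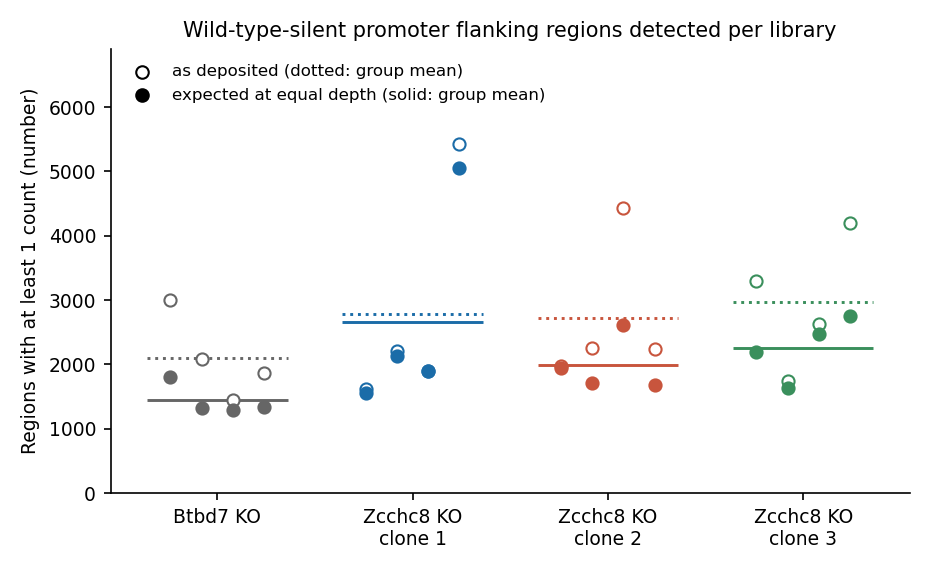
Number of wild-type-silent promoter flanking regions with at least 1 count in each edited library (vertical axis), by line (horizontal axis, replicates 1 to 4 from left to right). Open circles are counts as deposited and filled circles the expected number at equal depth, with dotted and solid lines for the group means; replicate 4 of clone 1, at 5429 and 5050, lies far above the rest.

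The summed level of the same regions did not overlap between the lines. In Btbd7 KO the silent regions together reached 415, 303, 311 and 325 CPM (replicates 1 to 4). Clone 1 libraries reached 562, 591, 579 and 1212 CPM, clone 2 libraries 585, 521, 607 and 522, and clone 3 libraries 534, 489, 627 and 677. Every one of the 12 Zcchc8 KO libraries lay above the highest Btbd7 KO library. Against the Btbd7 KO mean of 338 ± 51.8 CPM (SD, n = 4), the means of clones 1, 2 and 3 were 2.18, 1.65 and 1.72 times as high, and clone 1 without replicate 4 was 1.71 times as high. Leaving out the regions with counts in a single library was a choice made after seeing the data. It gave 260 ± 29.4 CPM in Btbd7 KO and 479 ± 25.9 and 488 ± 45.1 CPM in clones 2 and 3 (SD, n = 4 each). The ratios were 1.85 and 1.88. This rule counts over 12 Zcchc8 KO and 4 Btbd7 KO libraries, so a region found in Zcchc8 KO has more chances of a second library. It thus favours Zcchc8 KO, and these ratios are no support for a larger difference. The silent regions made up 0.394% of all promoter flanking counts in Btbd7 KO, 0.680% on average over the 12 Zcchc8 KO libraries, and 0.626% over 11 without replicate 4 of clone 1. These sums describe the chosen regions and carry no test.

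**Figure D2:**
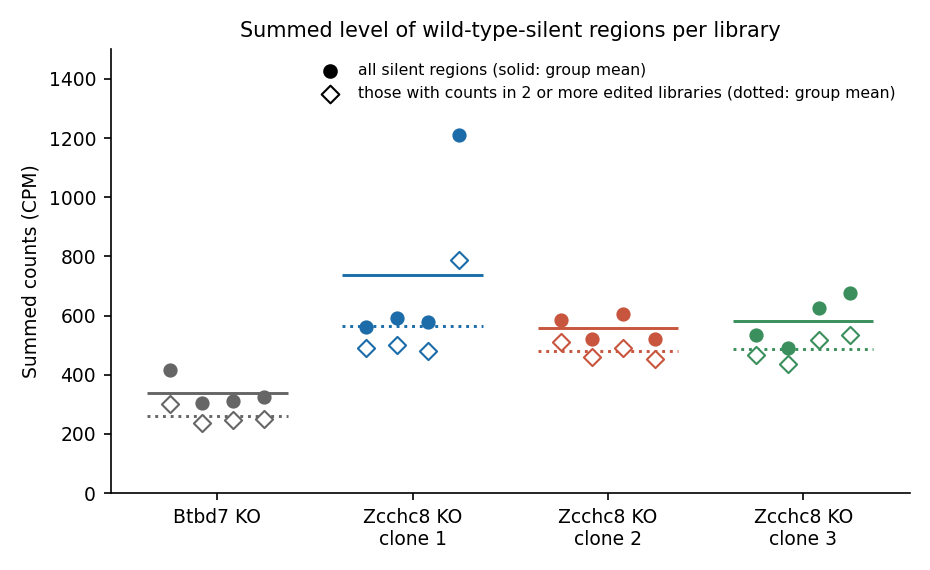
Summed level of the silent regions in each edited library in CPM (vertical axis), by line (horizontal axis, replicates 1 to 4 from left to right). Filled circles are all 63251 regions and open diamonds those with counts in at least 2 edited libraries, with solid and dotted lines for the group means. Summed over all regions, all 12 Zcchc8 KO libraries, from 489 CPM, lie above the highest Btbd7 KO library at 415 CPM. The rule behind the diamonds favours Zcchc8 KO, which has 12 of the 16 edited libraries.

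Detection that repeated within a line was compared at 4 libraries against 4. After 1 random thinning to equal depth, 246 silent regions had counts in at least 3 of the 4 clone 2 libraries and in none of Btbd7 KO (0.389% of the silent regions), whereas 46 had the opposite pattern (0.0727%). Over all 88425 regions the shares were 0.703% and 0.149%. For clone 3 the numbers were 248 and 36, or 0.392% and 0.0569%, against 0.746% and 0.107% of all regions. For clone 1 they were 254 and 45, or 0.402% and 0.0711%, against 0.686% and 0.191% of all regions. The excess on the Zcchc8 KO side is thus found over the whole table and is not particular to the silent regions. In clone 1 it was smaller without replicate 4, where the same rule asks for all 3 libraries left: 101 regions had counts in those 3 and none in Btbd7 KO, and 62 had counts in at least 3 Btbd7 KO libraries and none in clone 1. As deposited, the numbers were 288 and 62 for clone 2 and 295 and 51 for clone 3. For clone 1, the shallowest line, they were 217 and 82 with replicate 4, and 82 and 124 without it, which turns the direction. The clones set against each other gave 88 and 95 for clones 1 and 2, 73 and 94 for clones 1 and 3, and 81 and 102 for clones 2 and 3 at equal depth. As deposited these were 66 and 152, 51 and 160, and 98 and 117, so at unequal depth lines can differ in this count as much as clone 1 did from Btbd7 KO. Repeated detection was shared in part by the clones: at equal depth 747 regions were detected in this way in a single clone, 281 in 2 clones and 156 in all 3. Of these 156, 59 had no count in Btbd7 KO and 22 were detected in at least 3 Btbd7 KO libraries. The numbers between clones and the shared numbers include replicate 4 of clone 1 and were not counted without it.

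Regions just outside the choice are described beside it. The 2584 regions with a single wild-type count reached 83.4 ± 5.83 CPM in Btbd7 KO (SD, n = 4) and 171, 153 and 154 CPM in clones 1, 2 and 3, which is 2.05, 1.84 and 1.85 times as high. With 2 wild-type counts (1712 regions) the ratios were 2.14, 1.99 and 1.92, and with 3 counts (1260 regions) 2.20, 2.01 and 2.01. With 4 to 10 counts (4390 regions) they were 1.91, 1.82 and 1.84. At the 15228 regions with 11 or more wild-type counts they were 1.06, 1.05 and 1.07. Without replicate 4 the ratios of clone 1 were 1.89, 1.99, 2.12, 1.85 and 1.05 in the same order. The ratio at silent regions was thus not larger than at regions with 1 to 10 wild-type counts in clones 2 and 3, and the difference between these sets was not tested.

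**Figure D3:**
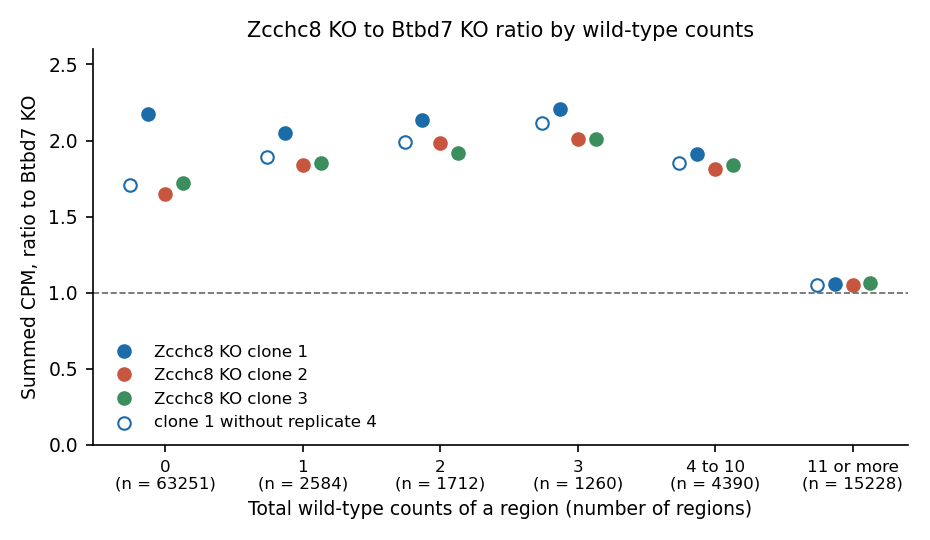
Summed CPM of each Zcchc8 KO clone divided by that of Btbd7 KO (vertical axis, no unit) for promoter flanking regions split by their total count in 3 wild-type libraries (horizontal axis, with the number of regions). Filled circles are the clones and open circles clone 1 without replicate 4; ratios lie between 1.65 and 2.20 up to 10 wild-type counts and between 1.05 and 1.07 above that.

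Enhancers and CTCF sites chosen in the same way gave like values. Of 68261 enhancers, 50305 (73.7%) had no wild-type count, and 26.1% of those had a count in an edited library. Their sum was 228 ± 32.4 CPM in Btbd7 KO (SD, n = 4), and 1.81 (clone 1 without replicate 4), 1.70 (clone 2) and 1.81 (clone 3) times that in the clones. Of 124679 CTCF sites, 95986 (77.0%) had no wild-type count, and their ratios were 1.80, 1.79 and 1.87. The corresponding ratios of the promoter flanking regions were 1.71, 1.65 and 1.72. Replicate 4 of clone 1 was the highest library in all 3 classes. Nothing was tested between the classes, and no value here is particular to promoter flanking regions.

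Single regions were tested with edgeR's quasi-likelihood test over the whole promoter flanking table, with Benjamini-Hochberg adjustment over the 14082 regions that passed the filter on low counts. Only 104 of the 63251 silent regions passed (0.164%), and they held 11.1% of the silent regions' counts in the edited libraries. Of these 104, 70 were called higher in the mean of the 3 Zcchc8 KO clones than in Btbd7 KO and 2 were called lower (adjusted p under 0.05). Over all 14082 regions tested, 16.5% were called higher and 4.69% lower. The fit included the 3 wild-type libraries, which are at 0 in these regions by choice. They shared in the estimate of the spread, and as the smallest group they set how many libraries the filter asked for. With the edited libraries only, 46 silent regions passed. The 104 cannot stand for the silent regions, however: 98 of them would have passed the filter without any Btbd7 KO library, and 97 were below its cutoff of 0.748 CPM in all 4 of those. Of these 97, 27 were not called in either direction. The filter still favoured regions that are higher in Zcchc8 KO, so the share called is no support for a rise. Likewise, the 2 regions called lower reached the cutoff in Btbd7 KO libraries alone. Without the filter, 114 of the 19413 silent regions with any count were called higher (0.587%) and 15 lower, against 4.52% and 1.23% of all 44587 regions. Most silent regions have too few counts for a call at this depth.

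Read per clone, 67 silent regions were called higher than Btbd7 KO in clone 1, 65 in clone 2 and 60 in clone 3, where 13.5%, 14.1% and 13.8% of all regions tested were called. Lower calls numbered 2, 3 and 2, against 4.5%, 3.86% and 2.81% of all regions tested. For the mean and in each clone, 47 were called higher and 2 lower, against 7.64% and 1.11% of all tested. The comparisons share the Btbd7 KO libraries, so that the overlap of clones is not independent. Among the 104 tested, all 12 Zcchc8 KO libraries lay above all 4 Btbd7 KO libraries at 33 and below them at 2, where 6.74% and 1.41% of all regions tested did. Without a filter, all 12 lay above all 4 Btbd7 KO libraries at 42 of the 63251 silent regions, and below them at 6. Over the whole table this was so at 1.1% and 0.235% of regions. Among the 70 regions called higher, 29 had no count in any Btbd7 KO library and none had more than 8 in a single one. Their mean level over the 12 Zcchc8 KO libraries ran from 0.387 to 2.23 CPM with a median of 0.787, so that even these are faint.

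**Figure D4:**
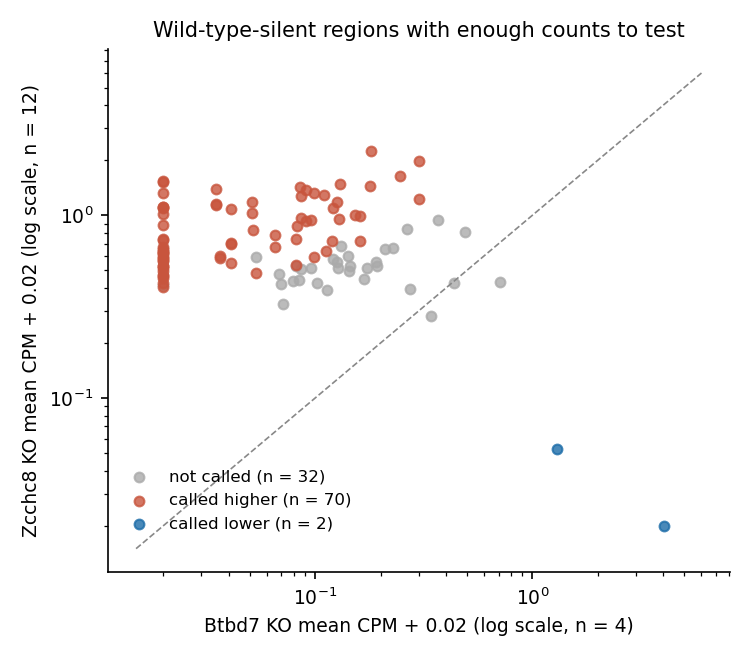
Mean CPM over 4 Btbd7 KO libraries (horizontal axis) and over 12 Zcchc8 KO libraries (vertical axis) of the 104 silent regions that passed the count filter, both on log scales after adding 0.02 CPM. Each point is a region, coloured by its edgeR call, and the dashed line marks equal levels; 70 regions called higher lie above it, 29 of them at 0 in Btbd7 KO, and 2 called lower lie far below it.

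The 8 highest of the regions called higher in every clone were taken by level. ENSMUSR00000198366 had the most counts of any silent region. It had 2, 1, 3 and 1 counts in Btbd7 KO, against 12, 12, 16 and 22 in clone 1, 16, 22, 25 and 30 in clone 2, and 28, 34, 15 and 45 in clone 3. No Zcchc8 KO library was as low as any Btbd7 KO library, and the clones overlapped. Its level rose from 0.161 ± 0.143 CPM (SD, n = 4) to 2.23 ± 0.813 (SD, n = 12), which on the log2 scale is 3.87 (SE 0.52; edgeR, adjusted p = 1.99e-09).

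At ENSMUSR00000019198 no Btbd7 KO library had a count. Clone 1 libraries had 15, 12, 5 and 14 counts, clone 2 libraries 7, 27, 20 and 29, and clone 3 libraries 23, 10, 15 and 17. The 3 clones were nearly equal, at 1.52 ± 0.548, 1.51 ± 0.533 and 1.49 ± 0.349 CPM (SD, n = 4 each). Against a floor of 3 counts over the Btbd7 KO libraries, the pooled Zcchc8 KO level was at least 26.1-fold higher (edgeR adjusted p = 1.11e-09).

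ENSMUSR00000030339 was also at 0 in all 4 Btbd7 KO libraries, and here the clones were unequal. Clone 1 had 18, 22, 26 and 21 counts, clone 2 had 3, 10, 13 and 5, and clone 3 had 12, 7, 11 and 18. In CPM, every library of clone 1 lay above every library of the other clones, and clones 1, 2 and 3 averaged 2.94 ± 0.607, 0.553 ± 0.203 and 1.09 ± 0.269 (SD over 4 libraries). The pooled Zcchc8 KO level was at least 22.3-fold higher than Btbd7 KO (edgeR adjusted p = 1.41e-08). The edgeR joint test that the clones are equal gave an adjusted p of 0.00432. The region reached the filter's cutoff in clones 1 and 3 alone, so the p-value of the joint test is a description.

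ENSMUSR00000211598 had 1 count in the 4 Btbd7 KO libraries together and 169 in the 12 Zcchc8 KO libraries. The pooled ratio was 68.2, with an exact 95% counting interval from 12.1 to 2711 that does not cover the spread between libraries (edgeR adjusted p = 1.08e-07). Clones 1, 2 and 3 averaged 1.69 ± 0.761, 1.72 ± 0.524 and 0.681 ± 0.116 CPM (SD over 4 libraries), but the joint test of the clones did not pass (adjusted p = 0.256).

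The other 4 regions had some counts in Btbd7 KO. ENSMUSR00000374884 rose from 0.280 ± 0.207 CPM (SD, n = 4) to 1.95 ± 0.592 (SD, n = 12), with 8, 4, 3 and 0 counts in Btbd7 KO and 8 to 43 (median 20) in Zcchc8 KO (log2 fold change 2.73, SE 0.48, edgeR adjusted p = 3.42e-06). ENSMUSR00000747245 rose from 0.226 ± 0.153 to 1.62 ± 0.619 CPM, with 1, 2, 3 and 4 counts against 4 to 28 (median 17; log2 fold change 2.92, SE 0.55, edgeR adjusted p = 1.41e-05). At both regions the counts of the groups touch, although the CPM of every Zcchc8 KO library was above every Btbd7 KO library. ENSMUSR00000486255 rose from 0.110 ± 0.107 to 1.47 ± 0.826 CPM, with 1, 2, 2 and 0 counts against 5 to 27 (median 14.5, log2 fold change 3.62, SE 0.64, edgeR adjusted p = 4.37e-06). Its clones 1, 2 and 3 averaged 2.47, 1.06 and 0.884 CPM, with every clone 1 library above the other clones. The edgeR joint test of the clones did not pass there (adjusted p = 0.122). ENSMUSR00000126415 rose from 0.159 ± 0.189 to 1.43 ± 0.677 CPM, with 0, 4, 3 and 0 counts against 3 to 38 (median 15; log2 fold change 3.19, SE 0.63, edgeR adjusted p = 3.66e-05). Its counts overlap between the groups, while its CPM does not: the lowest Zcchc8 KO library was at 0.434 and the highest Btbd7 KO library at 0.372. All 8 regions were called in each clone, the highest adjusted p of a single clone being 0.00163, for ENSMUSR00000126415 in clone 1. No Btbd7 KO library reached the filter's cutoff at any of the 8, so the filter favoured their direction. Their p-values are given as a description.

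**Figure D5:**
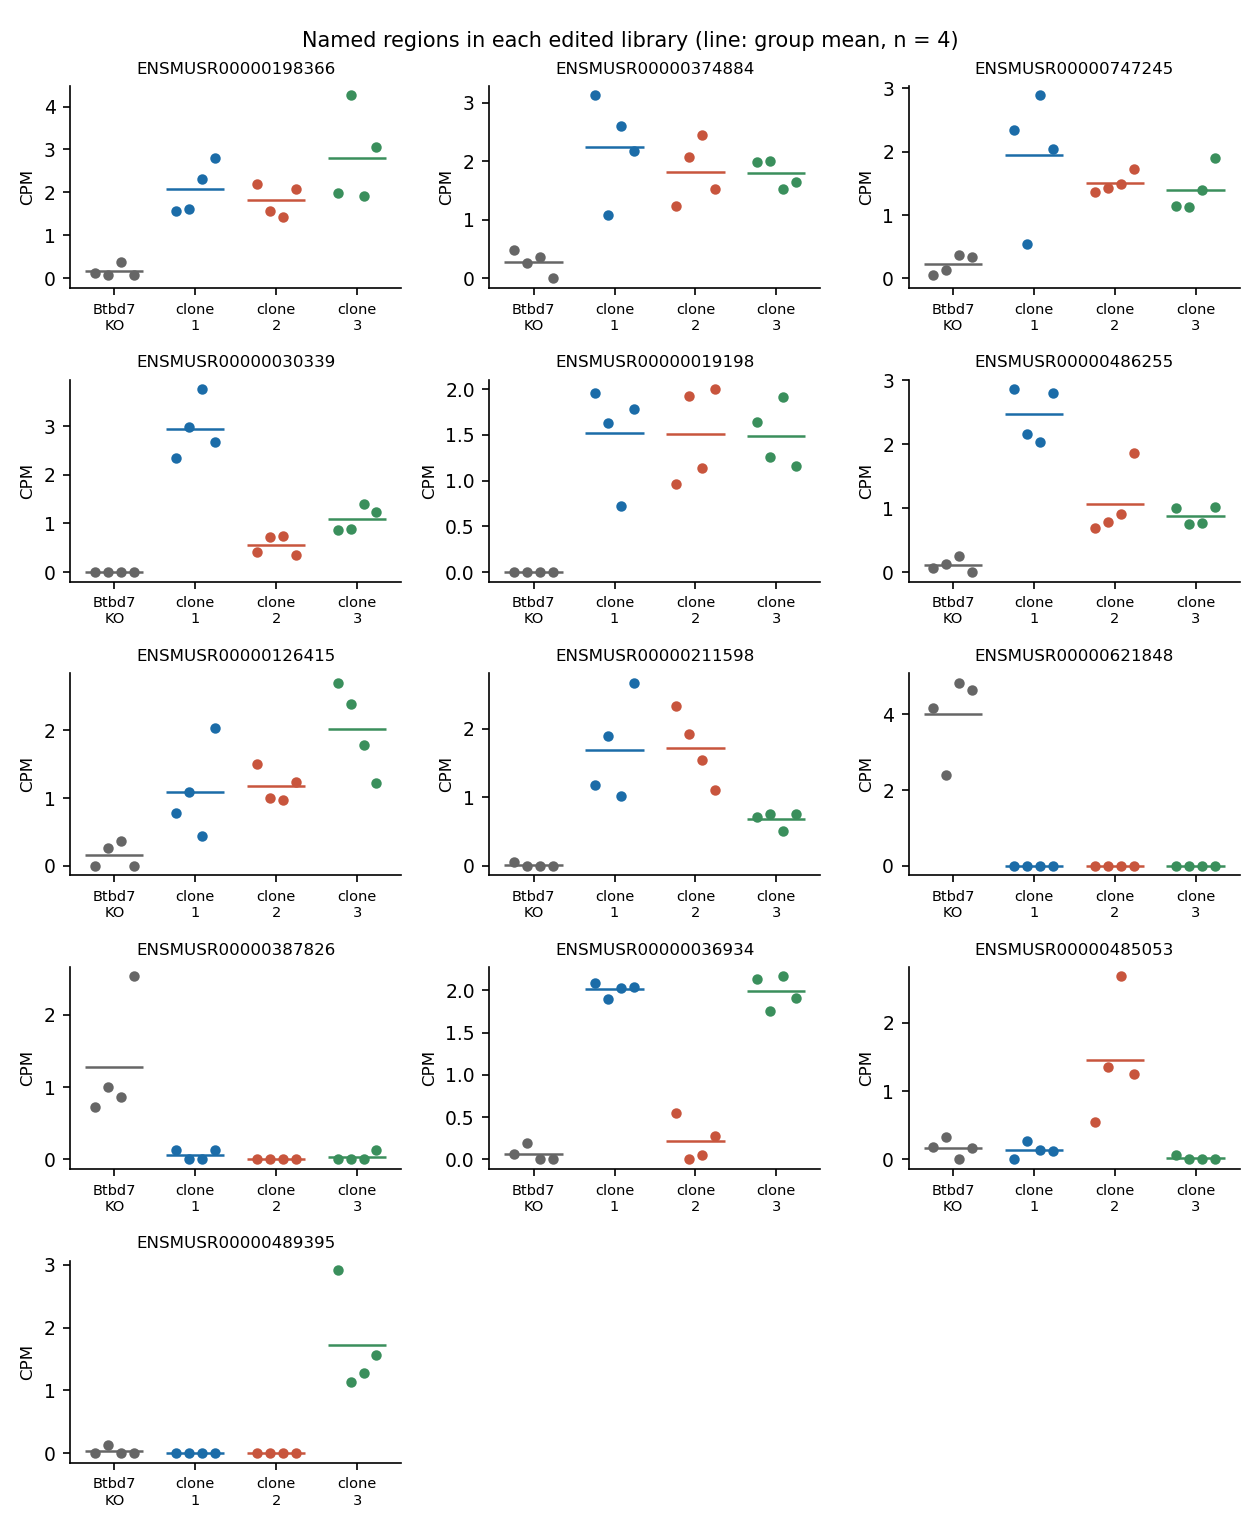
Level in CPM (vertical axes, each panel with its own range) of the 13 named silent regions in the 16 edited libraries (points, replicates 1 to 4 from left to right), by line, with the group mean as a line. The first 8 panels show regions higher in every clone, the next 2 show regions found in Btbd7 KO at 4.01 and 1.28 CPM on average, and the last 3 show regions that differ among the clones.

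The 2 regions called lower were found almost only in the control line. ENSMUSR00000621848 had 69, 36, 39 and 55 counts in Btbd7 KO, or 4.01 ± 1.12 CPM (SD, n = 4), and 0 in all 12 Zcchc8 KO libraries as in the 3 wild-type libraries that chose it. That is at least 164-fold lower in Zcchc8 KO, against a floor of 3 counts over its 12 libraries (edgeR adjusted p = 1.52e-19). Both regions could be tested only because they are high in Btbd7 KO, so their direction was set by the filter and the p-values are given as a description. ENSMUSR00000387826 had 12, 15, 7 and 30 counts in Btbd7 KO, or 1.28 ± 0.843 CPM (SD, n = 4). Zcchc8 KO held 4 counts in all, 2 in clone 1 and 2 in clone 3, and its log2 fold change fell by 5.20 (SE 0.83, edgeR adjusted p = 3.92e-07). It passed the count filter by a narrow margin and was left out of the test when replicate 2, 3 or 4 of Btbd7 KO was removed.

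The clones differed from each other at 11 of the 104 silent regions tested (10.6%; edgeR joint test, adjusted p under 0.05), where 7.44% of all regions tested were called. Of the 11, 6 reached the filter's cutoff in a single clone alone, so that the filter favoured regions unequal among the clones and the count is no support for a difference. The highest mean was in clone 1 at 2 of the 11, in clone 2 at 4 and in clone 3 at 5. ENSMUSR00000036934 was high in clone 1 (16, 14, 14 and 16 counts) and clone 3 (30, 14, 17 and 28), at 2.01 ± 0.0807 and 1.99 ± 0.194 CPM (SD, n = 4 each). Clone 2 had 4, 0, 1 and 4 counts there (0.220 ± 0.249 CPM), which is close to the 1, 3, 0 and 0 counts of Btbd7 KO, and the joint test gave an adjusted p of 0.000283. Against Btbd7 KO this region was called in clones 1 and 3 (edgeR adjusted p = 1.60e-06 and 1.53e-06) but not in clone 2 (adjusted p = 0.458). It reached the filter's cutoff in clones 1 and 3 alone, where it is high, so its p-values are a description.

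ENSMUSR00000485053 was high in clone 2 alone, with 4, 19, 47 and 18 counts, against 4 counts in clone 1, 1 in clone 3 and 10 in Btbd7 KO over all their libraries (joint test, edgeR adjusted p = 0.000110). Its mean in clone 2 was 1.46 ± 0.891 CPM (SD, n = 4), with replicate 3 the highest at 2.68 CPM and replicate 1 the lowest at 0.548. It could not be tested without replicate 2, 3 or 4 of clone 2, at equal depth or in the edited libraries alone, since it then failed the filter. ENSMUSR00000489395 was found in clone 3, with 41, 9, 10 and 23 counts (1.72 ± 0.818 CPM; SD, n = 4), while clones 1 and 2 were at 0 and Btbd7 KO had 2 counts in replicate 2 (joint test, edgeR adjusted p = 1.05e-06). Both regions reached the filter's cutoff in the clone where they are high and in no other line, so their p-values too are a description. The mean of the clones does not describe any clone at such regions.

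The genes of the decay pathway were read in the gene table in the same contrast. Of 22 genes besides Zcchc8 itself, which encode NEXT and exosome subunits, exosome cofactors, the PAXT adaptor and cap-binding partners, 21 were tested, 2 were called higher and 7 lower (edgeR, adjusted p under 0.05). Over all 15297 genes tested, 18.8% were called higher and 22.2% lower. Srrt, which encodes the cap-binding adaptor ARS2, rose by 0.39 on the log2 scale (SE 0.05, edgeR adjusted p = 1.83e-07). Zfc3h1, the zinc-finger scaffold of PAXT, rose by 0.30 (adjusted p = 6.40e-05). The lower genes were Exosc1 (-0.63), Exosc9 (-0.57) and Exosc10 (-0.22) of the exosome, the nuclease gene Dis3 (-0.34), the cofactor gene C1d (-0.30), the cap-binding gene Ncbp1 (-0.24) and the NEXT helicase gene Mtrex (-0.24), all as log2 fold changes. Exosc1, Exosc9, Dis3, Ncbp1 and Srrt were called in each clone. Zfc3h1 (adjusted p = 0.0646) and Mtrex (log2 fold change -0.06, adjusted p = 0.447) did not pass in clone 2, nor Exosc10 in clone 3 (adjusted p = 0.264), and C1d passed in clone 1 alone. Rbm7 did not pass (log2 fold change -0.07, adjusted p = 0.441). In wild type Zfc3h1 averaged 132 CPM, within the range of the clones (147, 123 and 139 CPM), and Btbd7 KO was lower at 111 CPM. For the other called genes the wild-type mean lay on the Btbd7 KO side of every clone mean. Exosc1 was at 48.2 CPM in wild type, between Btbd7 KO (60.0 CPM) and the clones (36.6 to 40.3 CPM). Differences from wild type were not tested.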

How the data were processed

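Reads had been aligned with STAR 2.7.3a, per the submitters' processing notes. The counter, genome build, strand setting and rule for shared reads are not given in the sources used here. Libraries came from a stranded total RNA kit, per the labels' protocols. The authors deposited raw counts, as whole numbers per region or gene and library; 19 libraries are in the region tables and 20 in the gene table. The tests used edgeR 4.0.16 under R 4.3.3 (filterByExpr by group, then glmQLFit and glmQLFTest), in 1 fit over 5 groups, with library sizes and TMM factors from the gene table. The scripts were tested on simulated data. Counting limits cover counting error only, since reads carry no molecular identifiers. Named regions were the 8 highest in Zcchc8 KO among regions called higher in the mean and each clone, the 2 highest in Btbd7 KO among those called lower, and for each clone the region highest in it with the lowest adjusted p in the joint test. The regions and lists were chosen with earlier results of these data known. No replicate pair agreed within sampling noise: chi-square divided by its degrees of freedom was 2.15 to 6.08 over 27 pairs. Alternatives included DESeq2 1.42.0, other filters and scalings, equal depth and leaving out each library.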

Additional observations from a re-analysis of the deposited data

Results flagged for a closer look

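In 60 groups of 4 libraries, the highest or lowest value was set against the others, and 9 groups had a value far outside. Chance gives about 1 in 20 for normally distributed values. That rate does not hold for counts near 0. A group at 0 throughout cannot be flagged, and a group with a single library above 0 always is. Replicate 4 of clone 1 stood out in silent regions detected (5429) and in their summed level (1212 CPM), and replicate 3 of clone 2 in regions detected (4433). In Btbd7 KO, replicate 4 stood out at ENSMUSR00000387826 (2.53 CPM). In clone 3, replicate 3 was low at ENSMUSR00000211598 (0.510 CPM). The other 4 are libraries with 1 or 2 counts beside libraries at 0: ENSMUSR00000211598 in Btbd7 KO (0.0603 CPM), ENSMUSR00000387826 and ENSMUSR00000485053 in clone 3 (0.136 and 0.0712 CPM), and ENSMUSR00000489395 in Btbd7 KO (0.133 CPM).

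The Zcchc8 KO clones differed from each other at 11 of the 104 silent regions tested in the edgeR joint test (10.6%), near the 7.44% of all regions tested, and 6 of the 11 passed the count filter through a single clone. Among the named regions these were ENSMUSR00000030339 (adjusted p = 0.00432), ENSMUSR00000036934 (adjusted p = 0.000283), ENSMUSR00000485053 (adjusted p = 0.000110) and ENSMUSR00000489395 (adjusted p = 1.05e-06). None of them reached the filter's cutoff in every clone, so these p-values are a description.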

How the results depend on the processing

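Counts of called regions follow the depth and the filter, because both set how many silent regions are tested. Higher calls (mean, clones 1, 2 and 3) were 70, 67, 65 and 60. With a mean of at least 10 counts, which left 5 silent regions, they were 4, 4, 4 and 4. Thinned to equal depth, which left 28, they were 25, 24, 24 and 26. In the edited libraries only, which left 46, they were 41, 38, 39 and 41, and without a filter 114, 106, 97 and 88. Lower calls (2, 2, 3 and 2) were 1 in each comparison with a mean of at least 10 counts or at equal depth, 1, 1, 2 and 1 in the edited libraries only, and 15, 3, 3 and 3 without a filter. Regions that differ among the clones (11) numbered 0 with a mean of at least 10 counts, 6 at equal depth and 17 when 1 wild-type count was allowed. Leaving out each library gave 59 to 89, 54 to 84, 52 to 79 and 50 to 75 higher, 1 to 4, 1 to 3, 1 to 4 and 1 to 4 lower, and 9 to 15 differing; the lower count of 1 arose without Btbd7 KO replicate 2, 3 or 4, when ENSMUSR00000387826 was not tested, and that of 4 (3 in clone 1) when wild-type replicate 2, 3 or 4 was left out and more regions passed the filter. Pathway genes stayed at 2 higher and ran from 6 to 9 lower. In the promoter flanking table, same-numbered libraries did not deviate together (correlations from -0.0591 to 0.0625 over 36 pairs), and 3 of 19 libraries correlated best with their own number. In the gene table the correlations were wider. They ran from -0.113 to 0.185 over 40 same-numbered pairs (mean 0.0078) and from -0.197 to 0.238 over 120 other pairs (mean -0.0025). There 3 of 20 libraries correlated best with their own number. With the replicate number as a block, 70 regions were higher and 2 lower in the mean, and 63, 62 and 62 higher in the clones, so the block moved no count by over 1.5 times. In all 345 results of the named regions, over the alternatives in which they were tested, the call was kept. Those against Btbd7 KO also kept their direction, whereas the joint test of the clones has none. Allowing 1 wild-type count reused the main fit, so the values of the named regions were the same there. ENSMUSR00000387826 and ENSMUSR00000485053 were each tested in 22 of 28 alternatives and failed the filter in the others, among them those without Btbd7 KO replicate 2, 3 or 4 and without clone 2 replicate 2, 3 or 4, respectively. Scaling within the promoter flanking table moved the median log2 fold change of all regions tested from 0.21 to 0.01, with 61 silent regions higher and 2 lower.

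Detection per library (mean of Btbd7 KO 2101, clone 3 2968) fell to 1441 in Btbd7 KO at equal depth, and to 1100.5 and 1462 in Btbd7 KO and clone 3 when at least 2 counts were asked for. Leaving out each library gave 1801 to 2318 in Btbd7 KO, 1910 to 3179 in clone 1, 2158 to 2979 in clone 2 and 2557 to 3373 in clone 3. Allowing 1 wild-type count raised the summed level to 422 CPM in Btbd7 KO and 712 and 736 CPM in clones 2 and 3. Asking for counts in at least 2 edited libraries lowered it to 260, 479 and 488 CPM in the same order. That rule was chosen after seeing the data and favours Zcchc8 KO, which has more libraries. At equal depth, 254 silent regions were detected in at least 3 clone 1 libraries and no Btbd7 KO library and 45 the other way; without clone 1 replicate 4, a choice made after seeing the data that asks for all 3 libraries left, these were 101 and 62. Leaving out each library gave 313 to 350, 578 to 794, 542 to 571 and 550 to 612 CPM in Btbd7 KO and clones 1, 2 and 3.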

Other observations

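Beside the named regions, 2 silent regions of clone 3, chosen after their values were seen, had a like pattern, and both passed the count filter through clone 3 alone. ENSMUSR00000200338 had 91 counts in clone 3, 8 in clone 2, 1 in clone 1 and 0 in Btbd7 KO. ENSMUSR00000489386 had 50 counts in clone 3 and 0 in every other library of the table. In clone 2, ENSMUSR00000605920 had 108 counts, against 34 in clone 1, 8 in clone 3 and 1 in Btbd7 KO (edgeR joint test, adjusted p = 0.000945). This region too was chosen after its values were seen. It reached the filter's cutoff in clones 1 and 2 alone, so its p-value is a description. Only 2 of the 63251 silent regions had counts in all 4 Btbd7 KO libraries and none in Zcchc8 KO: ENSMUSR00000621848 and ENSMUSR00000200521, the latter with 3, 15, 3 and 12 counts.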
